A study of Homo sapiens with 3 samples.

Results

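Kinesins and dyneins are the motors that carry cargo along microtubules, and 77 of the 62754 genes in the tables of wild-type pNPCs (primitive neural progenitor cells) were taken as their genes. The members were chosen by symbol alone: 89 symbols followed the naming pattern of the kinesins (KIF, KIFC) and of the cytoplasmic, light and axonemal dynein chains (DYNC, DYNL, DNAH), and 12 of these, numbered pseudogene copies, were left out. They comprised 43 kinesins and 32 dynein chains placed in 8 classes by role, and the pseudogenes KIF19BP and KIF4CP, which were put in no class. The 43 kinesins include the unitary pseudogene KIF28P, which was kept with the ciliary and atypical kinesins. CENPE, a kinesin of the kinetochore, does not carry the family symbol and is therefore described with the spindle genes.

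The cells came from H1, a widely used human embryonic stem cell line, and the series holds 3 wild-type replicates of 1 group, with no other genotype or treatment to compare them with. They were grown in a neural medium with N2 and B27 supplements, FGF2, LIF (leukemia inhibitory factor), the GSK3 inhibitor CHIR99021, the TGF-beta receptor inhibitor SB431542 and the ROCK inhibitor Y-27632, and polyadenylated RNA was sequenced. All libraries come from 1 cell line. Nothing in the labels says that the replicates came from separate cultures, so each p-value reflects the spread of these libraries alone, and that spread may be technical. The libraries held 34658454, 38400092 and 30038114 expected counts, RSEM's estimates of the reads per gene.

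Of 9 neural progenitor markers 7 were detected, led by VIM at 1912 ± 194 TPM (mean ± SD, n = 3) and NES at 181 ± 21.1 TPM, whereas PAX6 stood at 0.44 ± 0.34 TPM and HES5 at 6.76, 0.72 and 5.66 TPM in replicates 1, 2 and 3. The pluripotency genes POU5F1 and NANOG were near 0 (0.11 ± 0.03 and 0.02 ± 0.03 TPM), while LIN28A stood at 326 ± 117 TPM. All 12 neuron markers and all 5 mesenchyme markers were detected as well. The neuron markers summed to 1176, 742 and 668 TPM in replicates 1, 2 and 3, from MAPT at 2.13 ± 0.42 TPM to TUBB3 at 375 ± 89.4 TPM. The mesenchyme markers summed to 533, 1182 and 845 TPM, with PDGFRA lowest at 4.92, 18.1 and 19.0 TPM and COL1A2 highest at 278 ± 103 TPM. In bulk RNA, fewer cells of a type and less RNA per cell cannot be told apart.

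As background, a kinesin couples ATP hydrolysis in its motor domain to steps along a microtubule, most members moving toward the plus end, and some members depolymerise microtubule ends instead of walking. Cytoplasmic dynein-1 moves toward the minus end and is built around a very large heavy chain with intermediate, light intermediate and light chains, and dynein-2 is the return motor of intraflagellar transport in cilia. In dividing neural progenitors kinesins build the spindle and complete cytokinesis, in neurons they carry cargo down axons and dendrites, and axonemal dyneins power the beating of motile cilia.

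Motor genes were widely expressed in these cells. A gene is called detected when its level reached 1 TPM (a gene's share of all transcripts, corrected for transcript length, on a scale with the same sum in every library) in all 3 libraries. By this rule 55 of the 77 members (71.4%) were detected, 37 kinesins and 18 dynein chains, against 23.0% of all genes and 62.2% of protein-coding genes. Of the 22 members that were not detected, 16 lay below 1 TPM in every library and 6 passed it in some libraries. All members together took 0.466%, 0.560% and 0.590% of the counts of replicates 1, 2 and 3.

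The classes stood at very different levels, given as the median of log2(TPM + 1) over all members of a class. Cytoplasmic dynein-1 chains had the highest median, 6.20 ± 0.27 (mean ± SD over libraries, n = 3), with 4 of 5 chains detected. Mitotic kinesins followed at 5.87 ± 0.35 with 12 of 14 detected, and the ranges of these classes overlapped. Dynein-2 chains stood at 4.84 ± 0.16 (5 of 5), transport kinesins at 4.52 ± 0.27 (10 of 10) and neuronal kinesins at 4.09 ± 0.26 (8 of 8). The lower classes were the ciliary and atypical kinesins at 1.73 ± 0.29 (7 of 11), the dynein light chains at 1.56 ± 0.36 (6 of 9) and the axonemal dynein heavy chains at 0.62 ± 0.07 (3 of 13). Over all members the median was 3.99 ± 0.22, and over protein-coding genes it was 2.86 ± 0.18. The median hides the spread within the light chains, which included the most abundant member of all beside chains at almost no reads.

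**Figure D1:**
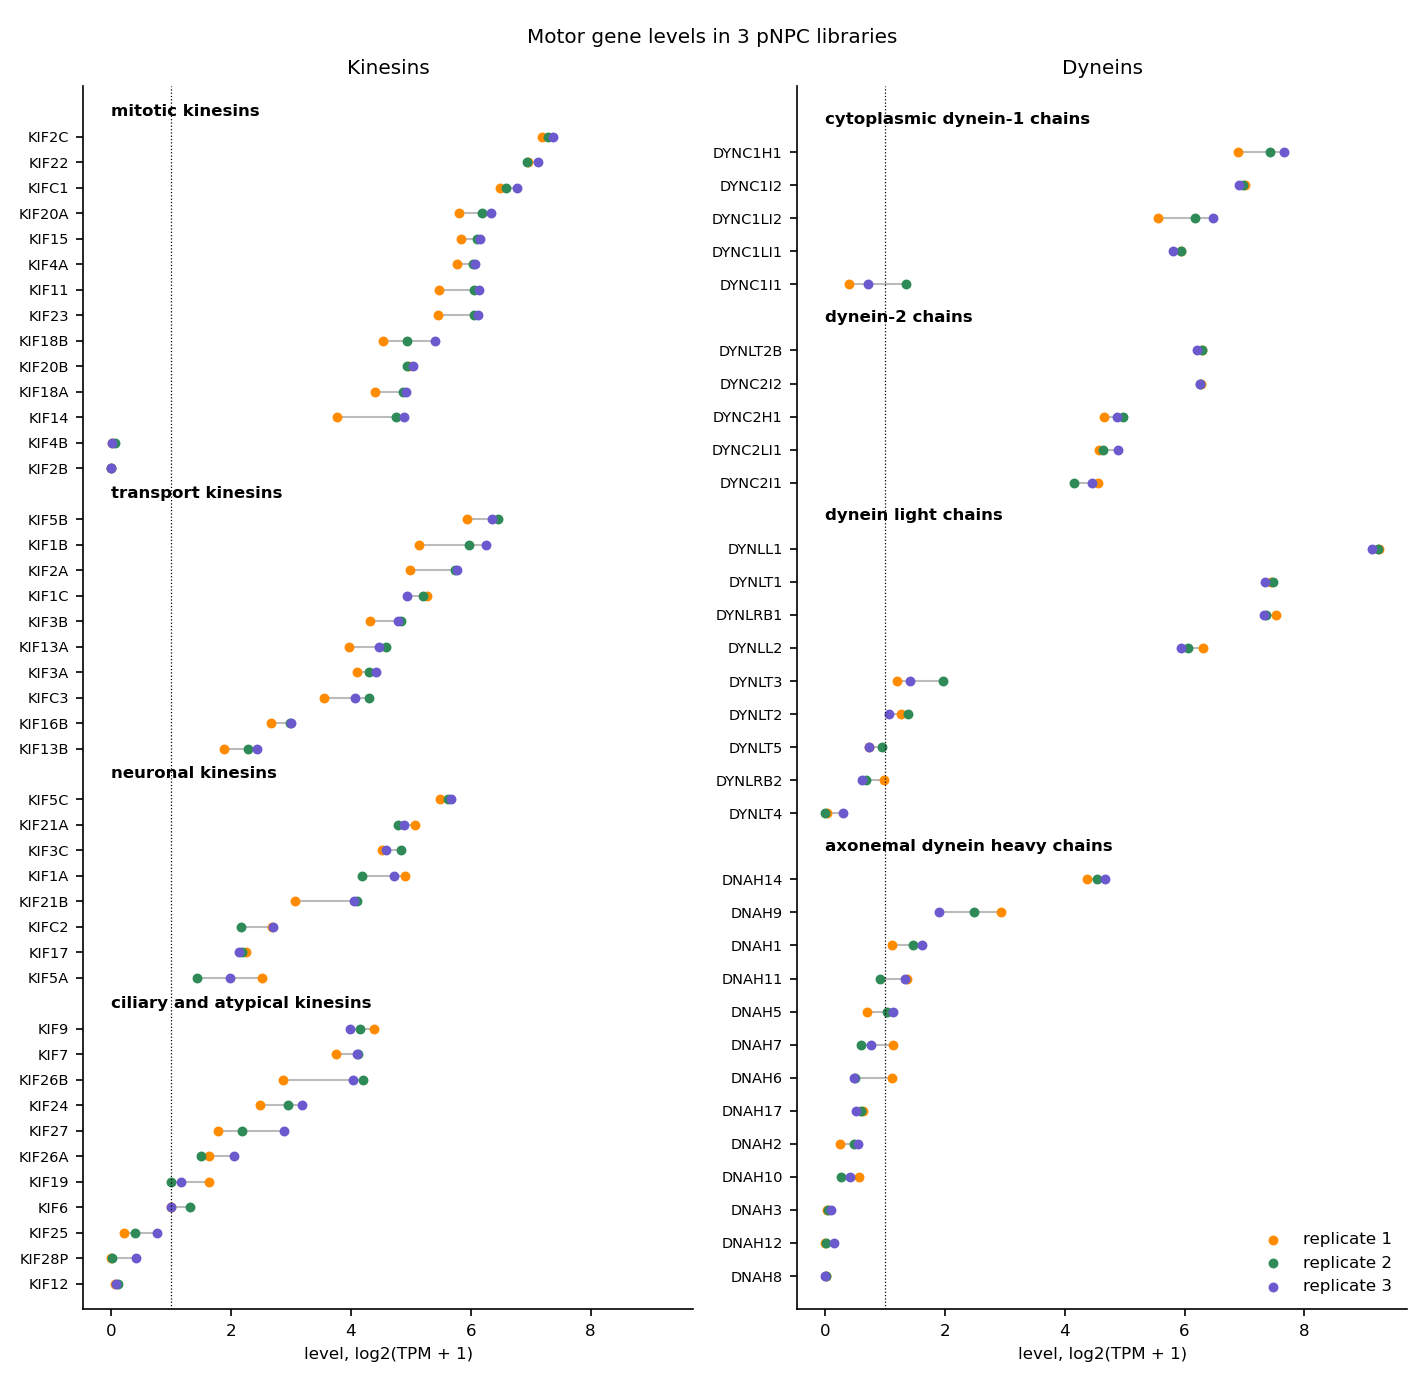
Levels of the 75 members placed in classes, as log2(TPM + 1) on the horizontal axis, with 1 point per replicate, a grey line from the lowest to the highest library and a dotted line at 1 TPM. DYNLL1 lies apart at the top of the scale, and most axonemal dynein heavy chains lie left of the dotted line.

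The mitotic kinesins, which build the spindle, move chromosomes and complete cytokinesis, summed to 694, 822 and 898 TPM in replicates 1, 2 and 3. KIF2C (ENSG00000142945.13, chromosome 1, 44739837 to 44767767, GRCh38.p14), the depolymerase that corrects attachments at centromeres, had the highest level, 145, 156 and 165 TPM. KIF22 (ENSG00000079616.14, chromosome 16, 29790751 to 29805385), a chromokinesin that pushes chromosome arms outward, stood at 123, 122 and 138 TPM. Its highest library was below the lowest of KIF2C. KIFC1 (ENSG00000237649.8, chromosome 6, 33391461 to 33409896), a minus-end motor that focuses spindle poles, stood at 88.7, 94.7 and 108 TPM, below KIF22 in every library.

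KIF4A, a chromokinesin that also shapes the central spindle, stood at 53.5, 65.1 and 66.2 TPM. Its retrocopy KIF4B was at 0.01, 0.04 and 0.01 TPM, from at most 4 counts in a library, and near-identical sequence makes the split of reads between these genes uncertain. The other detected mitotic kinesins had means between 22.4 TPM (KIF14, a cytokinesis motor) and 69.1 TPM (KIF20A, which brings the chromosomal passenger complex to the midzone). Among them KIF11, the motor that pushes spindle poles apart, had 59.4 ± 14.2 TPM and KIF15, which supports the same step, had 64.9 ± 7.55 TPM, with overlapping ranges. KIF2B, a relative of KIF2C, had 0 counts in all libraries, and 3 counts would have been at most 0.074 TPM. Of the 12 detected mitotic kinesins, 10 had their lowest level in replicate 1, against 57.3% of detected protein-coding genes.

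The 19 spindle partners of these kinesins, among them mitotic kinases and central spindle proteins, were all detected, with a list median of 6.61 ± 0.10 on the log2(TPM + 1) scale. The highest were the mitotic cyclin CCNB1 at 256 ± 1.45 TPM, the topoisomerase TOP2A at 228 ± 15.3 TPM and the kinase AURKB at 174 ± 9.41 TPM. CENPE was the lowest of the list at 33.1, 38.7 and 43.1 TPM, above the levels of KIF14 in each library.

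Promoter sequence is shown for mitotic kinesins, genes known to be transcribed in step with the cell cycle. From RefSeq (GRCh38.p14), 62 of the 77 members had a window of 250 bases before to 50 bases after a gene start. The windows were searched on both strands for TTTGAA, the core of the CHR (cell cycle genes homology region, bound by the DREAM complex in resting cells), and for CCAAT, the box bound by NF-Y, and these motifs share no overlap in the stretches below. TTTGAA was present in 10 of 14 mitotic kinesins (71.4%) and in 18.2% of all 27305 genes with a window. CCAAT was present in 11 of 14 (78.6%) against 39.7%. Both were present in 9 of 14 (64.3%) against 8.37%. The genes with both motifs include KIF4B, which was not detected. In the other kinesin classes, 8 of 10 transport, 5 of 8 neuronal and 7 of 11 ciliary and atypical kinesins had a window. Among these kinesins TTTGAA was held by KIF5B alone. Of 15 spindle partners with a window, 11 held TTTGAA and 14 held CCAAT. A match describes letters in a window, not a bound site.

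Promoters of 5 kinesins are printed from 200 bases before to 20 bases after the start, all on the plus strand, with either motif or its reverse complement in capitals. KIF2C (chr1:44739637-44739856), KIF22 (chr16:29790551-29790770) and KIFC1 (chr6:33391623-33391842) are the mitotic kinesins of highest level. KIF11 (chr10:92592930-92593149) and KIF4A (chrX:70289904-70290123) were added after the matches were seen, as examples with both motifs close to the start.
KIF2C: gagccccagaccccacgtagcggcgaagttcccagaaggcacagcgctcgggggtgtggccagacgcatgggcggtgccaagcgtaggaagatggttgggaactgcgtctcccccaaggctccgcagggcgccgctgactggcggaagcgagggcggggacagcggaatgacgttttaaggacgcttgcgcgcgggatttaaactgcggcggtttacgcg
KIF22: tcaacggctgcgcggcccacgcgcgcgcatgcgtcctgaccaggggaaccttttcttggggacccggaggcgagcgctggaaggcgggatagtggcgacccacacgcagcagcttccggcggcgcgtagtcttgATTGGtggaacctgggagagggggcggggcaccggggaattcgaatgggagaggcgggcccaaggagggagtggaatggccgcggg
KIFC1: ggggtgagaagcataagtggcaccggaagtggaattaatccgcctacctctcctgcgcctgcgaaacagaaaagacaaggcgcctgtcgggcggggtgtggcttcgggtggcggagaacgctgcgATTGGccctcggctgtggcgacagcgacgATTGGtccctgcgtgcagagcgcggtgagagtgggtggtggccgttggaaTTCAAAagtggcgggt
KIF11: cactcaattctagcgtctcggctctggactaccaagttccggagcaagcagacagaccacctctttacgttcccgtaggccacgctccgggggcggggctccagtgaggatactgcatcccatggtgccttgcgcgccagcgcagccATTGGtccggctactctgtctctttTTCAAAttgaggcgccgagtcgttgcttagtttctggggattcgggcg
KIF4A: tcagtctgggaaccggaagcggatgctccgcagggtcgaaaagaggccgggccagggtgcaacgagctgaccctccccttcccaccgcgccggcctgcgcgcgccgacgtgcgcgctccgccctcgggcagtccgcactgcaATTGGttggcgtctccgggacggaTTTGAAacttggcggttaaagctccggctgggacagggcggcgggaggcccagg
In KIF11 the TTTGAA match begins 28 bases and the CCAAT match 53 bases before the start, and in KIF4A the distances are 34 and 58 bases. KIFC1 holds CCAAT at 75 and 46 bases before the start and TTTGAA 5 bases into the transcript. KIF22 holds CCAAT alone, and the window of KIF2C, the most abundant mitotic kinesin, holds neither set of letters.

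All 10 genes of the transport class, most of which carry vesicles, mitochondria and other cargo in many cell types, were detected, and they summed to 232, 336 and 334 TPM. KIF5B (ENSG00000170759.11, chromosome 10, 32009015 to 32056425), the ubiquitous conventional kinesin heavy chain, stood at 60.4, 86.8 and 80.6 TPM. KIF1B, a carrier of mitochondria and synaptic vesicle precursors, stood at 34.3, 61.7 and 75.2 TPM. KIF2A, a depolymerase of axons and spindles, stood at 30.9, 52.6 and 53.4 TPM. Each of these genes was lowest in replicate 1, as were 9 of the 10 transport kinesins, against 57.3% of detected protein-coding genes. The exception was KIF1C, a carrier of dense-core vesicles, at 37.6, 36.1 and 29.7 TPM. KIF3A and KIF3B, which form kinesin-2 with the adaptor KIFAP3 and drive outward transport in cilia, had 18.5 ± 2.16 and 24.3 ± 4.65 TPM, with KIF3B at 18.9, 27.4 and 26.5 TPM in replicates 1, 2 and 3. KIF13A, an endosome motor, stood at 14.7, 23.1 and 21.3 TPM. Its relative KIF13B was the lowest of the class at 2.67, 3.87 and 4.39 TPM.

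All 8 kinesins best known from neurons were detected, and their sum was nearly level over libraries at 149, 144 and 154 TPM. KIF5C, a neuronal conventional kinesin, stood at 44.1, 48.0 and 49.9 TPM and was the highest of them. KIF21A, a brake on microtubule growth in axons, stood at 32.6, 26.7 and 28.5 TPM, and KIF3C, a neuronal kinesin-2 chain, at 22.0, 27.6 and 22.9 TPM. KIF1A (ENSG00000130294.18, chromosome 2, 240713767 to 240821403), the fast axonal carrier of synaptic vesicle precursors, stood at 29.1, 17.1 and 25.3 TPM. Its replicate 1 was its highest, and the ranges of KIF1A and KIF3C overlapped. KIF5A, the conventional kinesin of mature neurons, stood at 4.75, 1.69 and 2.95 TPM, the lowest mean of the class. KIF21B, a relative of KIF21A, stood at 7.43, 16.2 and 15.7 TPM and was lowest in replicate 1. Of the 8 neuronal kinesins, 4 had their highest TPM in replicate 1, against 25.0% of detected protein-coding genes. Beside this, 8 of the 12 neuron markers were also highest in replicate 1. Of the others, MAP2, DCX and SNAP25 were highest in replicate 3 and GAP43 in replicate 2. The part of neuron content in the levels of neuronal kinesins was not tested.

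Kinesin light chains and cargo adaptors accompanied the heavy chains, 14 of 15 of them detected, and the median of the list was 5.05 ± 0.26 on the log2(TPM + 1) scale. KLC1, the light chain of conventional kinesin, stood at 104, 127 and 128 TPM. MAPK8IP3, an axonal adaptor, had 50.4 ± 13.6 TPM and the lysosome adaptor PLEKHM2 had 46.0 ± 1.47 TPM. KLC3 was not detected, at 0.12 ± 0.09 TPM.

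Among the 11 ciliary and atypical kinesins, 7 were detected. KIF9, known from motile cilia and sperm, stood first by deposited TPM at 20.0, 16.9 and 14.8, a rank that rests on a short assigned transcript length. With the fixed length described below it averaged 5.89 ± 0.56 TPM, under KIF26B, KIF7 and KIF24. KIF7, the kinesin of the Hedgehog pathway at the tip of the cilium, stood at 12.5, 16.4 and 16.2 TPM. Of its exon bases 11.8% are shared with TICRR on the opposite strand, and whether the counting used strand is not stated in these sources. KIF26B, an atypical kinesin thought to lack motor activity, stood at 6.34, 17.4 and 15.3 TPM, and its relative KIF26A at 2.09, 1.82 and 3.14 TPM. KIF26B was lowest in replicate 1 and its range did not overlap that of KIF26A. KIF19, a regulator of cilium length, was just detected at 2.12, 1.00 and 1.24 TPM, and KIF6 just missed the rule, with 0.99 TPM in replicate 1 and 1.01 TPM in replicate 3. KIF12, KIF25 and the unitary pseudogene KIF28P had means between 0.06 and 0.39 TPM.

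Cytoplasmic dynein-1 was present with a complete set of chain types. The heavy chain DYNC1H1 (ENSG00000197102.14, chromosome 14, 101964573 to 102056443) stood at 118, 170 and 201 TPM, from 9000, 25065 and 23841 expected counts. The intermediate chain DYNC1I2, which links the heavy chain to dynactin, stood at 127, 125 and 120 TPM. DYNC1H1 was lowest in replicate 1 by a wide gap, whereas DYNC1I2 was nearly level. The neuronal intermediate chain DYNC1I1 was not detected, at 0.32, 1.54 and 0.65 TPM. Of the light intermediate chains, which bind cargo adaptors, DYNC1LI2 stood at 46.2, 71.4 and 88.2 TPM and DYNC1LI1 at 60.6, 60.3 and 55.0 TPM. DYNC1LI1 was the higher chain in replicate 1 and the lower chain in the other replicates.

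Dynactin, the cofactor that dynein needs for long movements, had 12 of 12 subunits detected with a list median of 6.39 ± 0.05. Its highest subunits were the capping proteins CAPZB at 328 ± 14.3 TPM and CAPZA1 at 170 ± 13.6 TPM, which also cap actin filaments elsewhere in the cell, and the dynamitin gene DCTN2 at 149 ± 13.1 TPM. Its lowest was ACTR1B at 31.6 ± 1.99 TPM. The 14 dynein regulators and adaptors were also all detected, with a median of 4.75 ± 0.21. NUMA1, which anchors dynein at spindle poles, led them at 129 ± 20.7 TPM, followed by the kinetochore adaptor SPDL1 at 78.6 ± 14.3 TPM and the lissencephaly gene PAFAH1B1 at 71.4 ± 14.5 TPM. BICDL1 was the lowest at 2.27 ± 0.37 TPM.

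All 5 dynein-2 chains were detected, and their sum of 223, 224 and 226 TPM varied least of the classes in proportion to its level. Their share of counts was less even, at 0.0209%, 0.0237% and 0.0255% in replicates 1, 2 and 3. DYNLT2B, a light chain, stood at 76.9, 77.5 and 72.7 TPM, and DYNC2I2, an intermediate chain, at 76.1, 75.3 and 75.2 TPM. These chains could not be ranked, since their ranges overlapped. The heavy chain DYNC2H1 (chromosome 11, 103109426 to 103479863) stood at 24.3, 30.5 and 28.3 TPM. All 16 intraflagellar transport genes were detected too, with a list median of 4.85 ± 0.16, from WDR35 at 10.7 ± 2.97 TPM to IFT52 at 75.7 ± 3.30 TPM.

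The dynein light chains split into 4 abundant genes and 5 whose means were below 2 TPM. DYNLL1 (ENSG00000088986.11, chromosome 12, 120469842 to 120498493), the LC8 hub protein that also binds many partners outside dynein, had the highest level of all members, 608, 602 and 559 TPM. Every library of DYNLL1 was above every library of any other member. DYNLT1 stood at 173, 178 and 161 TPM and DYNLRB1, of the roadblock family, at 183, 163 and 159 TPM. These chains overlapped with each other and with DYNC1H1. DYNLL2, the close relative of DYNLL1, stood at 78.0, 65.4 and 60.6 TPM. DYNLT3 was detected at 1.3, 2.90 and 1.69 TPM, and DYNLRB2, known from ciliated cells, was not, at 0.98, 0.61 and 0.53 TPM from 7, 5 and 3 counts.

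Few axonemal dynein heavy chains reached 1 TPM, 3 of 13, and the class summed to only 33.4, 32.8 and 34.4 TPM. DNAH14 stood at 19.7, 22.4 and 24.4 TPM from 394, 551 and 540 counts. DNAH9, a chain of the outer dynein arm, stood at 6.65, 4.62 and 2.73 TPM, and DNAH1, of the inner arm, at 1.18, 1.78 and 2.06 TPM. By deposited TPM, DNAH14 held 59.0%, 68.2% and 70.9% of the class sum, but 38.9%, 34.2% and 35.9% with the fixed length described below. DNAH5 and DNAH11, outer arm chains, averaged 0.95 and 1.33 TPM, and the means of DNAH3, DNAH8 and DNAH12 were at most 0.05 TPM.

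Other genes of motile cilia were likewise uneven. Of 12 multiciliated cell markers, 7 were detected, and they summed to 26.9, 32.0 and 27.0 TPM. FOXJ1, the transcription factor of motile cilia, stood at 11.2, 11.5 and 9.36 TPM, while the multiciliogenesis regulators MCIDAS and GMNC were at 0.14 ± 0.08 and 0.09 ± 0.13 TPM and the filament gene TEKT1 at 0.04 ± 0.06 TPM. Of 17 axonemal dynein partners and assembly factors, 10 were detected, led by DNALI1 at 39.6 ± 4.49 TPM and DNAAF5 at 39.1 ± 3.98 TPM, and the outer arm chain DNAI2 was at 0.09 ± 0.07 TPM.

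TPM of the largest motors depended on the transcript length that RSEM assigned. RSEM averages the lengths of a gene's transcripts by their estimated share, and the deposited mean length was compared with the gene's longest coding sequence in GENCODE 29. In 14 of the 55 detected members (25.5%) the assigned length fell short of the coding sequence, against 12.2% of detected protein-coding genes, whose median was 165% of coding length. This comparison was not matched for length. Coding sequences over 5 kb were held by 13 of the detected members, but by 570 of 12354 detected protein-coding genes. In those 570 genes the median assigned length was 73.5%, 87.6% and 86.9% of coding length in replicates 1, 2 and 3. DNAH14 was assigned 8.75% of its coding length, DNAH9 13.3%, DYNC2H1 32.2%, DYNC1H1 36.5% and DNAH1 46.8%. An assigned length under 20% occurred in 0.089% of detected protein-coding genes. Among the kinesins KIF9 stood lowest, at 35.6%. The number of reads from full-length and from short transcripts cannot be read from these gene-level tables.

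**Figure D2:**
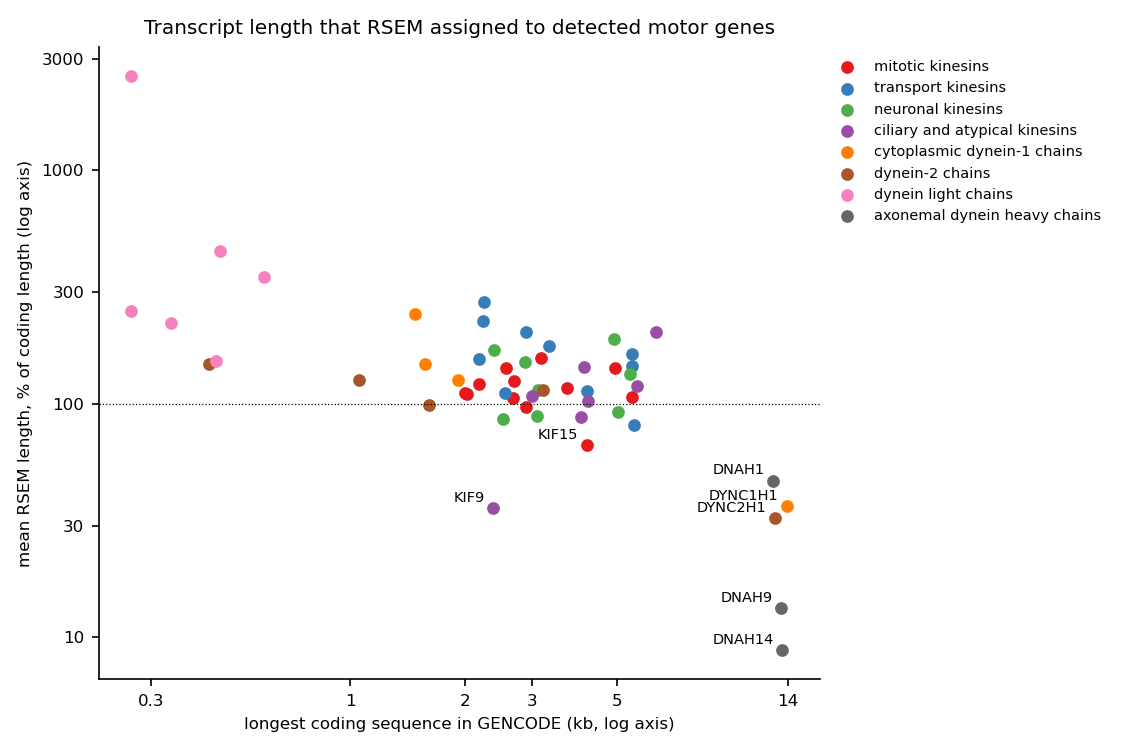
Mean transcript length that RSEM assigned to each detected member, as a percentage of its longest coding sequence, against that coding sequence in kb, on log axes and coloured by class. The dotted line marks 100%, and DNAH14 at 8.75% and DNAH9 at 13.3% lie lowest.

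TPM was therefore also computed with 1 fixed length per gene, the larger of its mean assigned length and its coding length, an alternative chosen after the lengths were seen. On this scale a typical detected protein-coding gene had a deposited level of 0.823 times its fixed-length level, so ratios are read against that. The ratio was 10.4 for DNAH14, 6.88 for DNAH9, 2.92 for KIF9, 2.35 for DYNC2H1 and 1.99 for DYNC1H1. DNAH14 then stood at 1.52, 2.15 and 2.73 TPM and was the only axonemal heavy chain of the 13 detected. DYNC1H1 then stood at 33.7, 95.0 and 117 TPM. Of the mitotic kinesins, 12 of 14 were detected on either scale.

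Ratios of related genes within a library were taken for 16 pairs as log2 of (TPM + 1), which understates ratios of low genes. The exact sign-flip permutation test, two-sided, cannot with 3 libraries give a p below 0.25, so no pair could pass 0.05. In 14 pairs the ratio had the same sign in all 3 libraries (exact permutation p = 0.25 each, 0.29 after Benjamini-Hochberg adjustment over the 16 pairs). KIF5B exceeded its neuronal relatives, KIF5A by 4.27 ± 0.81 and KIF5C by 0.66 ± 0.20 (mean ± SD, n = 3). KIF1B exceeded KIF1A by 0.23, 1.79 and 1.54 in replicates 1, 2 and 3. KIF1C was also above KIF1A, by 0.54 ± 0.43, KIF13A above KIF13B by 2.15 ± 0.14 and KIF21A above KIF21B by 1.17 ± 0.72. The ratio of KIF2A to the mitotic KIF2C was -1.78 ± 0.36, and that of KIF26A to KIF26B was -1.98 ± 0.73. KIF3B and KIF3C had no common direction (-0.21, -0.01 and 0.20).

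Among the dyneins the abundant chain of a pair was far above its relative. DYNLRB1 exceeded DYNLRB2 by 6.64 ± 0.09, DYNC1I2 exceeded DYNC1I1 by 6.15 ± 0.49 and DYNLT1 exceeded DYNLT3 by 5.89 ± 0.36 on the same log2 scale. DYNLL1 exceeded DYNLL2 by 3.10 ± 0.14 per length, but from counts with no length scaling the sign turned to -0.82. RSEM assigned DYNLL2 a length of 6807 bases, and DYNLL1 670.1, 669.1 and 670.4 bases. The heavy chain of dynein-1, DYNC1H1, exceeded that of dynein-2, DYNC2H1, by 2.49 ± 0.28. DYNC1LI1 and DYNC1LI2 had no common direction, at 0.38, -0.24 and -0.67.

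**Figure D3:**
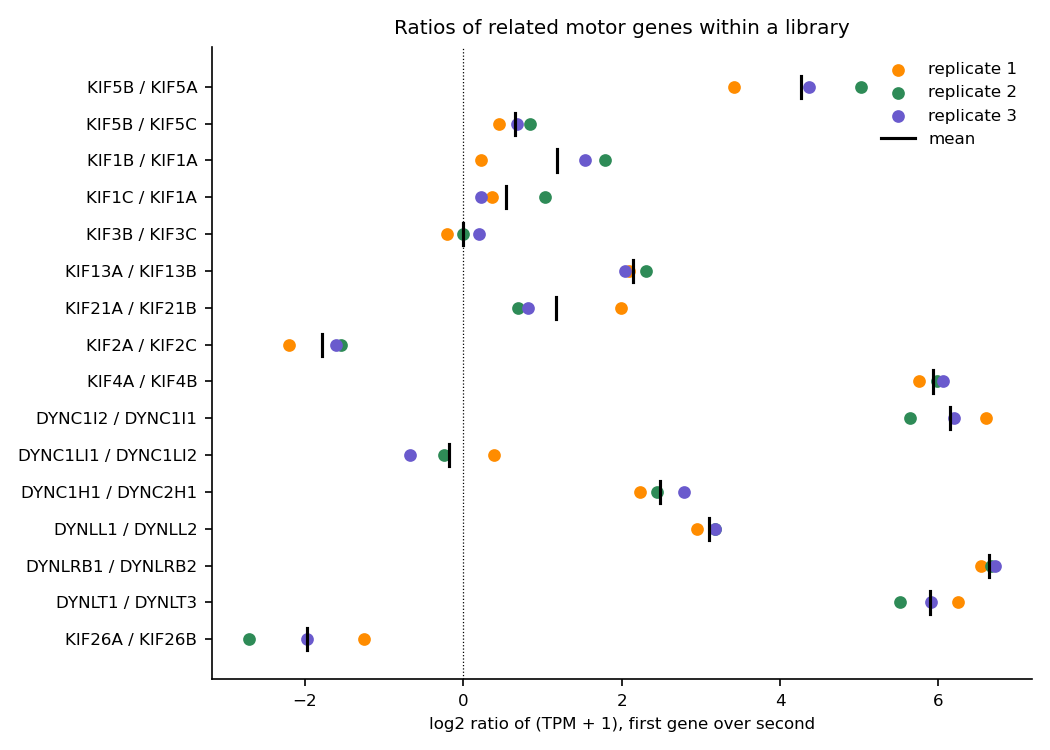
Log2 ratios of (TPM + 1) of the 16 pairs of related motor genes, with 1 point per replicate and a black bar at the mean. The points of KIF3B over KIF3C and of DYNC1LI1 over DYNC1LI2 lie on either side of the dotted line at 0, and those of each other pair lie on 1 side.

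With 1 group, the spread between replicates was the only quantity that could be tested gene by gene. In edgeR, 271 of 17046 genes tested (1.59%) varied more than the dispersion trend allows, and 1 of the 65 members tested, DYNC1H1, was among them (adjusted p = 0.01337). Its edgeR estimate of the coefficient of variation beyond counting noise, which is drawn toward the trend, was 34.7% against 18.5% on the trend. In a simulation with dispersion varying from gene to gene, described below, adjusted p-values of this test were too lenient. The call was kept with DESeq2 size factors (adjusted p = 0.01409), with no filter beyond 1 count (0.02295) and with the trend on transcript length removed (0.007809). It was lost with a common dispersion (0.09832) and without replicate 1, 2 or 3 (0.9999, 0.08567 and 0.1651). It was also lost with the trend on coding length removed (0.9999), an alternative that was not planned. DYNC2H1 and KIF26B came next with adjusted p = 0.05788 and 0.06139 in edgeR, which missed the threshold. With the trend on coding length removed, KIF1A was the member called instead (adjusted p = 0.01748), and with a common dispersion it was DYNC1I1 (0.01584). In all, 8 of the 65 members (12.3%) had an unadjusted p under 0.05, against 7.35% of all genes tested.

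Counts of long genes were lower in replicate 1. For each gene the log2 CPM (counts scaled by library size with TMM factors, and not by length) of a library minus the mean of the others was taken, and for detected protein-coding genes with a coding sequence over 5 kb the median in replicate 1 was -0.70, with 93.7% of them below 0. For those up to 1 kb the median was 0.21, with 24.3% below 0. Of 13 detected members over 5 kb, 9 lay below 0, with a median of -0.45, and of 7 members up to 1 kb, 1 did, with a median of 0.30. In TPM, 33 of 55 detected members were lowest in replicate 1, against 57.3% of detected protein-coding genes.

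**Figure D4:**
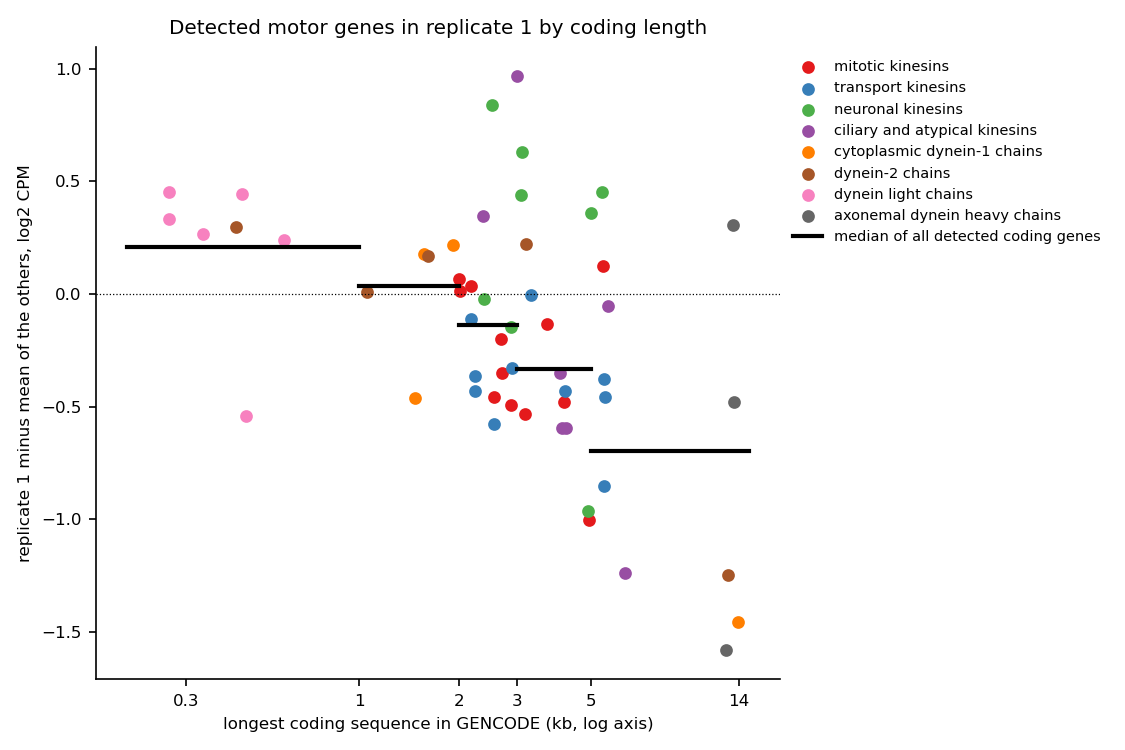
Log2 CPM of replicate 1 minus the mean of replicates 2 and 3 for each detected member, against its longest coding sequence in kb on a log axis, coloured by class. Black bars are the medians of detected protein-coding genes in 5 length ranges, from 0.21 up to 1 kb to -0.70 over 5 kb.

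By class, the median deviation of replicate 1 was -0.28 for mitotic kinesins, -0.40 for transport kinesins, -0.35 for ciliary and atypical kinesins and -0.48 for axonemal heavy chains. It was 0.40 for neuronal kinesins, 0.30 for light chains, 0.17 for dynein-2 chains and -0.14 for dynein-1 chains, beside 0.02 for detected protein-coding genes. With the trend on coding length removed, mitotic kinesins stood at -0.06 and transport kinesins at -0.08. Ciliary and atypical kinesins turned to 0.01, dynein-1 chains stood at -0.06, dynein-2 chains at 0.05 and light chains at 0.03. Axonemal heavy chains, of which 3 were detected, turned to 0.65, whereas removal of the trend on transcript length left them at -0.67. With the coding-length trend removed, neuronal kinesins stood at 0.76, with 7 of 8 members above 0, against 51.7% of detected protein-coding genes. Among these KIFC2 deviated by 1.00, KIF1A by 0.98 and KIF5A by 0.87, and KIF21B by -0.49. In TPM, with no length trend removed, all 5 mesenchyme markers were lowest in replicate 1, against 57.3% of detected protein-coding genes. The part of mesenchyme-like or neuron-like content in the class deviations was not tested.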

How the data were processed

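Per the file headers, the RSEM table of each library lists 62754 genes, their transcript length, their effective length and 3 measures of expression. The submitters' processing notes list STAR 2.7.11a, RSEM 1.3.1, Trim Galore 0.6.10 and the build GRCh38. For the annotation release and strandedness, the sources used here give nothing. The deposited expected count is RSEM's estimate of reads per gene, not normalized, with reads that fit several genes shared out between those genes. The deposited TPM corrects for effective length and has the same sum in each library. The deposited FPKM was used only in an alternative. The total depth was 30038114 to 38400092 counts per library.

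The members and lists were chosen with earlier results of these data known. All members may be named. Values in every library are given for the 3 members of highest mean TPM in each class, members of pairs and members called. Genes of further lists, named from among the highest and the lowest by mean TPM, are mostly given as mean ± SD, and a few others were named after their values were seen. Gene types and coding lengths came from GENCODE 29, in which all 77 members matched, and promoters and coordinates (1-based) from RefSeq GRCh38.p14.

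Excess spread was tested on rounded expected counts in edgeR 4.0.16 (limma 3.58.1, R 4.3.3) with TMM scaling and filterByExpr. The residual deviance of an intercept-only fit at the trended dispersion was set against a chi-square of 2 degrees of freedom, with Benjamini-Hochberg adjustment over all genes tested and a threshold of 0.05, and the procedure was tested on simulated data. In a simulation of 16656 genes whose dispersion varied from gene to gene, 200 genes were changed in 1 library each. Of these changes, 4% of 2-fold, 40% of 4-fold, 84% of 8-fold and 84% of 16-fold ones were called, along with 48 unchanged genes. Unchanged genes were a larger share of the calls than 0.05 allows, so adjusted p-values were too lenient there. Deviations used log2 CPM with TMM factors and a prior count of 2, and length trends were lowess curves with a span of 0.3. Levels, ratios, motifs and figures were computed with Python 3.11.15, numpy 2.4.6, pandas 2.3.3, scipy 1.17.1 and matplotlib 3.10.9. Alternatives were other detection minimums, pseudocounts, scalings and dispersions, removal of length trends, a fixed length per gene, and leaving out each replicate.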

Additional observations from a re-analysis of the deposited data

How the results depend on the processing

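Depth limits chains with few counts, such as DYNLRB2 and DYNC1I1, and 3 replicates limit every test. The count of 55 detected members stayed within 1.5 times under every alternative tried. By class, a minimum of 5 TPM left 5 neuronal kinesins, 3 ciliary and atypical kinesins and 1 axonemal heavy chain, and axonemal chains numbered 6 at 0.5 TPM, 10 by a count of at least 10 and 1 at fixed length.

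Without length scaling, on log2(CPM + 1), class medians were mitotic 6.88, transport 6.24, neuronal 6.07, ciliary and atypical 3.01, dynein-1 7.23, dynein-2 5.46 and axonemal 1.56. The mean of members gave mitotic 5.0, neuronal 3.77, dynein-1 5.42, dynein-2 5.29, light chains 3.84 and axonemal 1.05. Detected members alone gave ciliary and atypical 2.88, dynein-1 6.57, light chains 6.74 and axonemal 2.44. A pseudocount of 0.1 gave ciliary and atypical 1.26, light chains 1.01 and axonemal -0.67. A fixed length per gene, added after seeing the data, gave transport 4.81, neuronal 4.49 and axonemal 0.37.

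Of the 16 pair ratios, 3 changed sign: KIF3B to KIF3C was 0.61 without length scaling, 0.026 at fixed length and -0.11 to 0.095 without 1 replicate, DYNC1LI1 to DYNC1LI2 was -0.46 to 0.071 without 1 replicate, and DYNLL1 to DYNLL2 was -0.82 without length scaling. The cause was not tested.

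In edgeR, 4 members had excess spread with the trend on transcript length removed (1.84% of all genes), namely DYNC1H1, DYNC2H1, DYNLL2 and KIF1A. The number was 0 when replicate 1, 2 or 3 was left out. There, 4, 7 and 7 members had an unadjusted p under 0.05 in edgeR, against 4.96%, 5.36% and 5.93% of all genes. In replicate 1 the deviation turned to 0.014 (ciliary and atypical) and 0.65 (axonemal) with the coding-length trend removed, and to -0.0029 (dynein-2) with the transcript-length trend removed. With the coding-length trend removed it moved to -0.058 (mitotic), -0.080 (transport), 0.76 (neuronal) and 0.033 (light chains). With the transcript-length trend removed, mitotic kinesins stood at -0.19, transport kinesins at -0.060, neuronal kinesins at 0.54, light chains at 0.099 and axonemal heavy chains at -0.67. On log2(TPM + 1), mitotic kinesins stood at -0.37, neuronal at 0.17, dynein-1 at -0.29 and light chains at 0.057. No paired analysis was possible because there is 1 group.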

Other observations

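Of the 12 numbered pseudogene copies left out of the members, DYNC1I2P1 had 22.1, 32.0 and 17.0 counts in replicates 1, 2 and 3, DYNLL1P1 and DYNLT3P2 had 1 count in 1 library each, and the others had none.

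Several members share exon bases with a gene on the opposite strand in GENCODE 29, and without known strandedness their reads cannot be told apart. For KIFC2, 17.8% of exon bases are shared with FOXH1 (mean 0.19 TPM), and for KIF9, 14.9% with KIF9-AS1 (2.32 TPM). DYNC1LI2 shares 21.6% with ENSG00000260465 (8.6 TPM) and KIF22 shares 13.0% with ENSG00000275857 (4.62 TPM). KIF20A shares 3.34% with BRD8 (70.5 TPM), a gene as abundant as KIF20A itself, and DNAH11 shares 5.21% with CDCA7L (55.2 TPM), a gene above DNAH11 in level.

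The axonemal heavy chain promoters were also searched for GTTGCC, the core of the X-box bound by RFX factors, on both strands. It was present in 5 of 11 axonemal chains with a window (45.5%), 3 of 5 neuronal kinesins (60.0%), 2 of 4 dynein-2 chains and 3 of 8 light chains (37.5%). Lower shares were found in ciliary and atypical kinesins (2 of 7, 28.6%), mitotic kinesins (3 of 14, 21.4%), dynein-1 chains (1 of 5) and transport kinesins (1 of 8, 12.5%). Of 15 spindle partners with a window, 0 held it. The share was 32.3% of all members with a window and 14.6% of all genes with one.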
